A study of Mus musculus with 22 samples.

Results

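Apelin (Apln) and the apelin receptor (Aplnr, also called APJ) are 2 of the 55376 genes counted in sorted cells of the mouse embryo spinal cord at E12.5. Both were chosen by name after their levels in these libraries had been seen, so their levels in the 6 groups are given as a description with no test. The knockout series compared wild-type with Plxnd1 knockout embryos in sorted endothelial cells and in sorted motor neurons, from cord dissected together with its meninges. The regional series compared wild-type endothelial cells of the cord parenchyma with wild-type endothelial cells of the meninges. Endothelial cells of every group carried the Kdr-Cherry reporter, a red protein under the control of the VEGF receptor gene Kdr, and motor neurons carried ISL1-fGFP, a green reporter of the motor neuron factor gene Isl1. Embryos were pooled by genotype before sorting, and which stretch of Plxnd1 was deleted is not given in the labels. Parenchyma of batches 1 to 3 was ventral cord, and that of batches 4 and 5 was whole cord.

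Apelin is a secreted peptide, cut from a longer precursor, that binds a G-protein-coupled receptor on nearby cells. A second peptide, elabela (Apela), binds the same receptor. In growing vessels the ligand is known as a product of endothelial tip cells at the front of a sprout, while the receptor is widespread in young endothelium and stays high in veins.

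In mm10, Apln spans chrX:48025146-48034853 on the minus strand, with 3149 exon bases in 3 exons. Aplnr spans chr2:85136225-85139923 on the plus strand, with 3699 bases in 1 exon. Neither gene overlaps another annotated gene, so no neighbour's exons share their reads. No promoter sequence was matched to Aplnr, so only the 250 bases before the Apln start are shown. They are chrX:48034854-48035103 of GRCm38.p6, minus strand, from RefSeq. Capitals mark the ETS core GGAAG read on either strand, the motif bound by endothelial ETS factors.
Apln promoter: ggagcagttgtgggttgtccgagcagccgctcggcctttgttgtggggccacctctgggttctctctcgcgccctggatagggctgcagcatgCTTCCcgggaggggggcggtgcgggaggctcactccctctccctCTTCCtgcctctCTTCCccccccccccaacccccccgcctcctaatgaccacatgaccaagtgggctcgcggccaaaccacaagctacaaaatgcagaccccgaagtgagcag
The window holds 3 matches to GGAAG or its reverse CTTCC, and 64.1% of the 32851 promoter windows searched hold at least 1. The hypoxia response core ACGTG, searched on both strands, has 0 matches here, and 16.6% of the same windows hold it. The G and C share of these 250 bases is 65.2%, against a median of 52.4% over all windows. A match is a description of letters, not evidence of binding.

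Each library held between 15685784 and 27035395 counted reads or read pairs. Of 22 deposited files, 21 were used: the file labelled wild-type endothelial batch 2 was identical to that of knockout endothelial batch 1 in every gene and was left out, which leaves 2 wild-type endothelial libraries. Plxnd1, the deleted gene, had levels of 213 and 175 CPM (reads of the gene scaled to equal library size) in the wild-type endothelial libraries, where the knockout ones had 28.9, 15.4 and 18.7 CPM. For motor neurons the wild-type libraries had 12.1, 5.14 and 7.79 CPM, where the knockout ones had 1.78, 0.645 and 0.771 CPM. All 12 endothelial markers were detected in every group. The sorted endothelial libraries also held RNA of other cells: the summed level of 10 meningeal and mesenchymal markers was 10500 to 12200 CPM in the knockout series endothelial libraries, 10300 to 13400 CPM in the meningeal libraries and 1100 to 1770 CPM in the spinal libraries, against endothelial marker sums of 601 to 1310, 956 to 1970 and 1880 to 4130 CPM. In bulk libraries, fewer cells of a type and less RNA per cell cannot be told apart. Because embryos were pooled, the p-values below measure the spread between libraries, and the labels do not say how many embryos stand behind each.

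**Figure D1:**
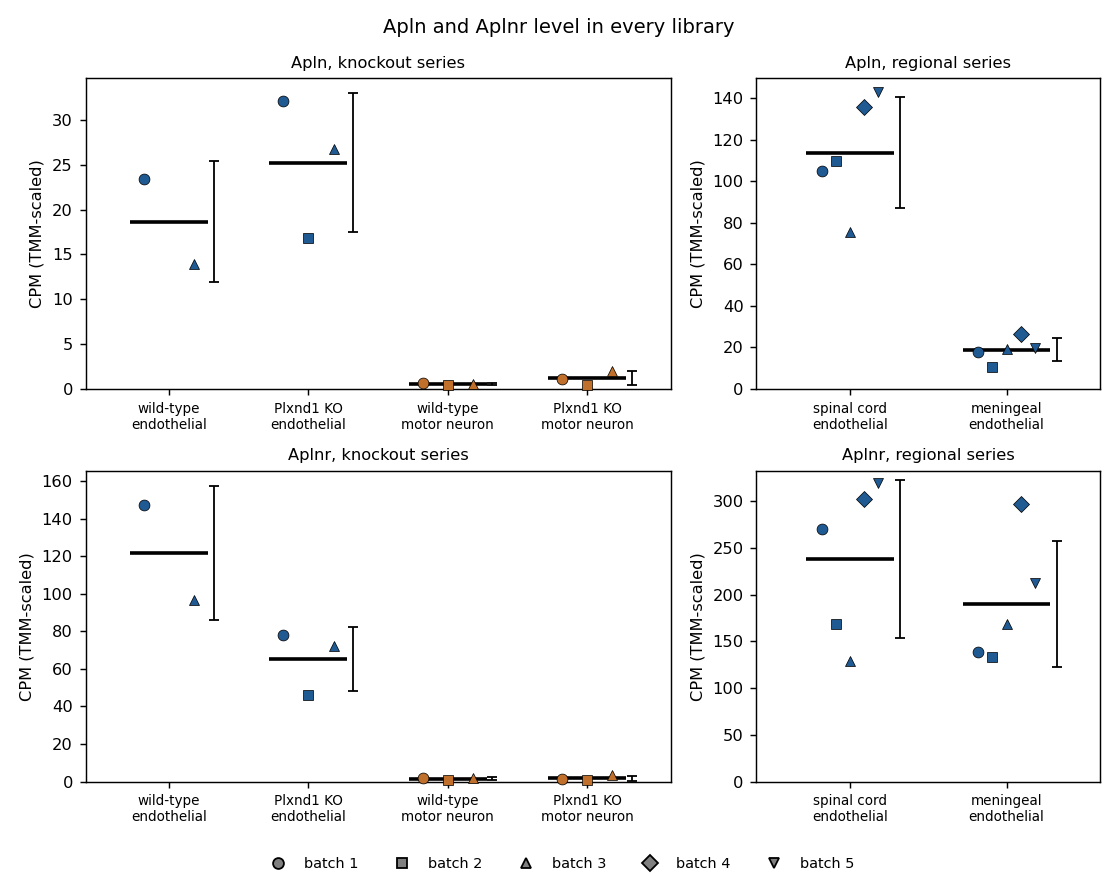
Level of Apln (top) and Aplnr (bottom) in every library, in CPM of the TMM-scaled library size. Points are libraries, marked by batch; black lines are group means and bars the SD. Apln was 75.5 CPM or more in every spinal library and 26.3 CPM or less in every meningeal library, while the Aplnr values of those groups overlapped.

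In the knockout series Apelin and its receptor were far higher in the sorted endothelial libraries than in the motor neuron libraries. Apln measured 23.4 and 13.9 CPM in wild-type endothelial libraries of batches 1 and 3. In wild-type motor neuron libraries of batches 1 to 3 it measured 0.655, 0.432 and 0.544 CPM, from 16, 9 and 13 reads. The groups did not overlap, and the mean was 34.3-fold higher in endothelial cells (log2 fold change 5.08 ± 0.50, SE, n = 2 and 3). Aplnr measured 147 and 96.6 CPM in the endothelial libraries, and 2.13, 0.576 and 1.84 CPM in the motor neuron libraries. Its groups did not overlap either, and the mean was 80.5-fold higher in endothelial cells (log2 6.30 ± 0.58, SE). In this comparison 64.8% of the 19266 genes tested were called, 33.8% of all tested higher and 31% lower in endothelial cells, so a difference between these cell types was common among genes. Markers of other cells were higher as well: 8 of 8 for pericytes and smooth muscle, 8 of 8 for macrophages and 8 of 8 erythroid. For meningeal and mesenchymal cells it was 9 of 10. Which cells of the sorted libraries made Apln and Aplnr was not tested.

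The low values in motor neuron libraries stood where those of endothelial marker genes stood. The wild-type motor neuron mean was 2.92% of the endothelial mean for Apln and 1.24% for Aplnr. The same percentage ran from 1.62 to 17.9 over the 12 endothelial markers, with a median of 2.48. Apln therefore lay inside the range of the markers and Aplnr just below its lowest member, Cdh5, the adhesion molecule VE-cadherin. Whether motor neurons themselves hold these transcripts was not tested.

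Among the genes around the pair, the other ligand Apela was also higher in endothelial cells. It measured 1.56 and 2.09 CPM there against 0.491, 0.24 and 0.0838 CPM in motor neurons, which is low in both (log2 2.72 ± 0.64, adjusted p = 0.00355, edgeR). Of 12 tested receptors related to Aplnr or shared with other vascular peptides and lipids, 12 were higher in the endothelial libraries. They were led by Ednra, an endothelin receptor, at log2 6.43 ± 0.17, and Agtr1a, an angiotensin receptor, at 5.55 ± 0.67. The 8 pericyte and smooth muscle markers were higher too, with a median of log2 6.29, and which cells made these receptors was not tested. Of 9 tested genes of proapelin processing and apelin breakdown, 5 were higher and 3 lower. The convertases Pcsk2 (-3.17) and Pcsk1 (-2.36) were lower in endothelial cells, and Furin, which can cut the precursor, was higher (1.18 ± 0.13).

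Of 20 coupling and signal genes of the receptor, 6 (30.0%) were higher in endothelial cells, near the 33.8% of all tested genes. Lower were 9 (45.0%), above the 31% of all tested genes. Adcy4, an adenylate cyclase, was higher (6.51 ± 0.41), and the inhibitory G-protein subunits Gnaz (-2.82) and Gnao1 (-2.52) were lower, while their relative Gnai2 was higher (1.94 ± 0.10). Of 20 reported regulators and targets, 16 were higher and 1 lower, including the VEGF receptor gene Kdr (5.78 ± 0.54), which drove the sort, and Klf2 (5.70 ± 0.58), a flow-responsive factor. The tip cell, vein and artery lists had 15 of 16, 9 of 13 and 16 of 19 tested genes higher.

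In endothelial cells of Plxnd1 knockout embryos, Aplnr was below wild type in every library, while the Apln values of the genotypes overlapped. Aplnr measured 78.1, 45.8 and 72.0 CPM in knockout batches 1 to 3, all below the 147 and 96.6 CPM of the wild-type libraries. The knockout mean was 0.535 of the wild-type mean (log2 -0.90 ± 0.26, SE, n = 2 and 3). Apln measured 32.1, 16.8 and 26.8 CPM in knockout batches 1 to 3, and its 16.8 CPM in batch 2 lay between the wild-type values. The ratio of means for Apln was 1.35 (log2 0.44 ± 0.33). In the batches with both genotypes, the knockout to wild-type ratio of Aplnr was 0.53 in batch 1 and 0.745 in batch 3, and that of Apln was 1.37 and 1.93. Without wild-type batch 3 the log2 differences were -1.17 for Aplnr and 0.11 for Apln, and without wild-type batch 1 they were -0.55 and 0.87. With the batch as a block the log2 differences were -0.67 ± 0.11 for Aplnr and 0.69 ± 0.14 for Apln. Knockout batch 2 had no wild-type partner in that fit, so these values rest on batches 1 and 3. The log2 ratios of those batches were -0.92 and -0.42 for Aplnr and 0.46 and 0.95 for Apln, further apart than the SEs of the fit.

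No gene of 18209 passed in this comparison (0%, edgeR, adjusted p under 0.05), while 431 had an unadjusted p under 0.05. DESeq2 called 30, and edgeR with the batch block called 180 (0.989%). Plxnd1, the deleted gene, was thus not called by edgeR without the block, despite the fall in its level given above. A gene that did not pass there is therefore not shown to be unchanged. The endothelial marker sum was 1310 and 859 CPM in wild-type batches 1 and 3 and 1120, 601 and 882 CPM in knockout batches 1 to 3. Relative to that sum, the spread between libraries of a genotype shrank. Aplnr came to 11.2% and 11.3% of the sum in wild type and to 6.98%, 7.62% and 8.16% in knockout. Apln came to 1.78% and 1.62% in wild type and to 2.86%, 2.80% and 3.03% in knockout. On this scale neither gene's genotypes overlapped, with log2 differences of -0.57 for Aplnr and 0.77 for Apln. The share of all genes whose genotypes separate, on this scale or in CPM, was not counted, so the separation by itself says little with so few libraries. This scaling was chosen after seeing the data.

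Set against each of the 12 endothelial markers in turn, Aplnr was lower in knockout relative to 12, by log2 -0.91 (Flt1) to -0.22 (Egfl7), and Apln was higher relative to 12, by 0.43 (Flt1) to 1.12 (Egfl7). These 12 values share the same Apln and Aplnr levels by which the pair was chosen and are a description of how far the choice of marker moves them. Of the 12 markers, 1 had a log2 fold change above 0 in knockout, so a gene without change would also be higher relative to most of them. The 2 wild-type libraries limit the precision of all these values.

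**Figure D2:**
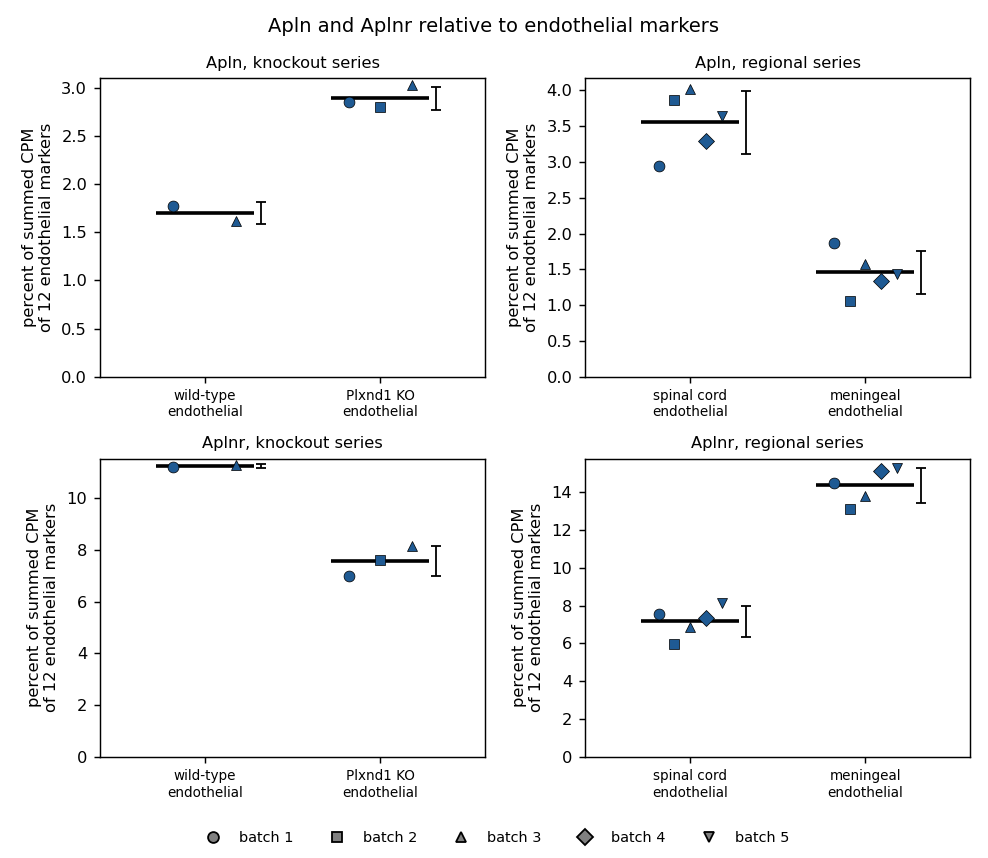
Apln and Aplnr in each endothelial library as a percentage of the summed CPM of 12 endothelial markers. Points are libraries, lines group means and bars the SD. Apln is higher and Aplnr lower in knockout than in wild type, and the same directions hold for spinal over meningeal libraries, with no overlap in any panel. The share of all genes without overlap on this scale was not counted.

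The endothelial libraries of the knockout series also differed in embryo sex, and Apln is on the X chromosome. Xist, the RNA of the inactive X, measured 2330 CPM in wild-type batch 1 and 0.396 CPM in batch 3, and 2260, 0.791 and 968 CPM in knockout batches 1 to 3. Within each genotype, Apln and Aplnr both had the order of Xist, and the endothelial marker sum had the same order. The part of embryo sex in these levels was not tested. In batch 1, where both endothelial libraries were Xist-high, Ddx3y of the Y chromosome was at 0 and 0.0795 CPM, and the ratios were those given above (1.37 for Apln and 0.53 for Aplnr).

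No gene of the apelin pathway lists passed in knockout against wild-type endothelial cells without the batch block, where Plxnd1 did not pass either. With the block, a fit that rests on batches 1 and 3, 6 of the 106 listed genes tested passed in edgeR (5.66%, beside 0.989% of all genes). Of these, 1 was from the list of apelin regulators and targets (Cldn5) and 5 were from the vein and artery lists. The endothelial junction gene Cldn5 (log2 -0.70) and the amino acid carrier gene Slc38a5 (-1.34) were lower. Higher were Vwf (0.86), the gene of von Willebrand factor, Clu (1.36), Fbln2 (0.45) and the receptor gene Notch1 (0.39). The same fit called 4 of 5 cartilage markers higher, 2 of 8 erythroid markers lower, and Egfl7, 1 of the 12 endothelial markers of the scaling sum, lower (-0.51). The cartilage marker sum was 267 to 429 CPM in wild type and 457 to 653 CPM in knockout, and its part in the other genes' values was not tested. Apela measured 1.91, 2.66 and 2.65 CPM in knockout libraries against 1.56 and 2.09 CPM in wild type (log2 0.40 ± 0.30, adjusted p = 0.999, edgeR, not passing).

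In motor neurons the values of the genotypes overlapped for both genes. Apln measured 1.16, 0.484 and 2.0 CPM in knockout batches 1 to 3, from 28, 12 and 52 reads, overlapping the wild-type range of 0.432 to 0.655 CPM (log2 1.15 ± 0.52). Aplnr measured 1.45, 0.565 and 3.31 CPM, overlapping the wild-type range of 0.576 to 2.13 CPM (log2 0.22 ± 0.65). In this comparison 0.012% of 16695 genes were called, and none of the apelin pathway lists. The knockout library of batch 3, with the highest Apln and Aplnr, also had the highest endothelial marker sum of the motor neuron libraries, 50.1 CPM against 20.6 to 41.2 CPM in the other 5. Without it the log2 difference was 0.58 for Apln and -0.60 for Aplnr. Embryo sex was not matched in batch 3, where Xist measured 866 CPM in the knockout and 0.796 CPM in the wild-type motor neuron library. In knockout batch 1 the sum of 6 liver markers was 577 CPM, against at most 1.31 CPM in wild-type motor neuron libraries. The part of either in these levels was not tested. As a percentage of the endothelial mean, the knockout motor neuron mean was 4.82 for Apln and 2.72 for Aplnr, within the 1.62 to 23.5 of the endothelial markers.

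In the regional series the ligand separated cord from meninges, and the receptor did not. Apln measured 105, 110, 75.5, 136 and 143 CPM in spinal batches 1 to 5. It measured 17.9, 10.8, 19.4, 26.3 and 19.9 CPM in the meningeal libraries of the same batches. The lowest spinal value was above the highest meningeal one, and the spinal mean was 6.04-fold higher (log2 2.59 ± 0.23, SE, n = 5 and 5). Within batches the ratio ran from 3.9 in batch 3 to 10.2 in batch 2. Embryo sex was not matched between the regions in batches 1 and 2. Ddx3y of the Y chromosome was there at 40.0 and 0 CPM in spinal libraries and at 0.161 and 52.1 CPM in meningeal ones. The part of embryo sex in the regional values of Apln, an X-linked gene, was not tested. A difference was common in this comparison, where 47.8% of 16213 genes were called, 24.8% of all tested higher and 23% lower in the cord.

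Aplnr measured 270, 169, 129, 302 and 320 CPM in spinal batches 1 to 5, and 139, 133, 169, 297 and 213 CPM in the meningeal libraries. The groups overlapped, and the spinal mean was 1.25-fold the meningeal mean (log2 0.32 ± 0.28). The ratio within batches was 1.95, 1.27, 0.762, 1.02 and 1.5. Spinal Aplnr was lowest in batch 3, which also had the lowest spinal Apln and the lowest spinal endothelial marker sum, 1880 CPM.

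Relative to the endothelial marker sum, the receptor was lower in the cord. Aplnr came to 7.57%, 5.95%, 6.87%, 7.32% and 8.15% of the sum in spinal batches 1 to 5 and to 14.5%, 13.1%, 13.8%, 15.1% and 15.3% in meningeal batches, so the groups no longer overlapped (log2 -1.01). Apln came to between 2.94% and 4.02% in spinal and between 1.06% and 1.87% in meningeal libraries (log2 1.30). The sign of the receptor's difference therefore turned with this scaling, chosen after seeing the data, while that of the ligand kept its direction and shrank. The sum itself averaged 3270 CPM in spinal and 1310 CPM in meningeal libraries, so the scaling lowers every gene in the cord against the meninges. A gene with equal CPM in both regions would also come out lower. The share of all genes that separate on this scale was not counted, so the separation is not shown to be particular to Aplnr.

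Set against single markers, Aplnr was lower in the cord relative to 12 of 12, from log2 -2.09 (Flt1) to -0.02 (Emcn), with a median of -1.20. All 12 markers themselves had a log2 fold change above 0 in the cord, with a median of 1.5. A gene without regional change would therefore also be lower relative to each of them. As in the knockout series, these values reuse the levels by which the pair was chosen. The value against Emcn, a mucin of venous and capillary endothelium, was near 0, so the size of the difference depended on the marker. Apln was higher relative to 12 of 12, from 0.22 (Flt1, a VEGF receptor) to 2.29 (Emcn). Other cells' markers moved with region as well: the pericyte and smooth muscle sum was 3180 to 8540 CPM in spinal and 1210 to 1630 CPM in meningeal libraries, and the mesenchymal sum was lower in the cord by the values given earlier. Their part in the levels of Apln and Aplnr was not tested.

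The balance of ligand to receptor RNA, each divided by exon length, differed in the same way between the groups. Per kilobase, Apln was at 5.92 ± 2.13 CPM and Aplnr at 33.0 ± 9.71 CPM in wild-type endothelial cells (SD, n = 2). The ratio Apln over Aplnr was 0.186 and 0.169 in wild-type libraries and 0.482, 0.432 and 0.437 in knockout libraries. In the regional series it was 0.457, 0.763, 0.687, 0.53 and 0.524 in spinal and 0.151, 0.0952, 0.134, 0.104 and 0.11 in meningeal libraries. Receptor RNA per base exceeded ligand RNA in every endothelial library, and neither pair of groups overlapped. How often the ratio of other gene pairs separates these groups was not counted. This ratio needs no library size and no marker list. In motor neuron libraries it ran from 0.347 to 1.01, on 9 to 86 reads per gene.

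**Figure D3:**
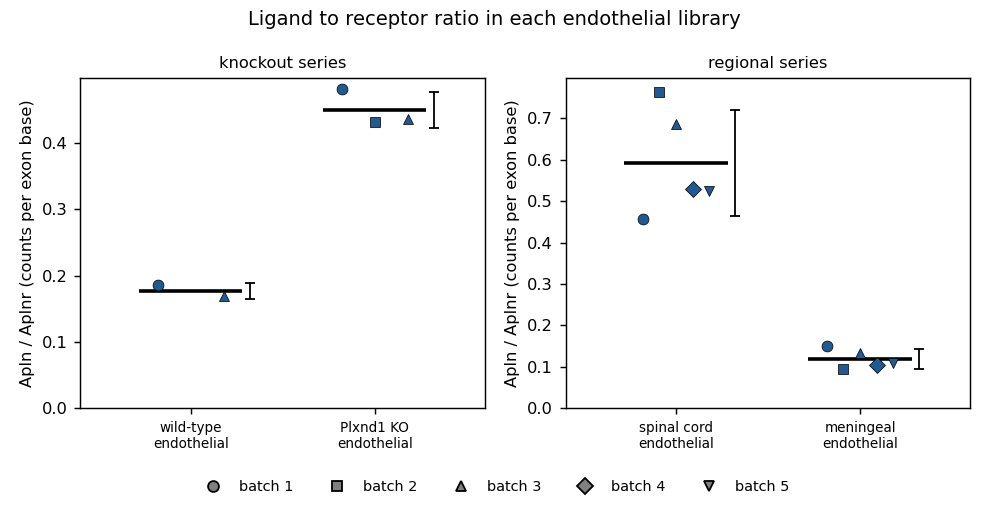
Apln over Aplnr, in counts per exon base, in each endothelial library. Points are libraries marked by batch, lines group means and bars the SD. Knockout libraries (0.432 to 0.482) lie above wild-type ones (0.169 and 0.186), and spinal libraries (0.457 to 0.763) above meningeal ones (0.0952 to 0.151).

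The order of groups was therefore not the same for the pair. In the knockout series Apln ran from knockout endothelial cells (25.2 ± 7.73 CPM, SD, n = 3) through wild-type endothelial cells (18.6 ± 6.71, n = 2) to knockout (1.22 ± 0.761, n = 3) and wild-type motor neurons (0.544 ± 0.111, n = 3). Aplnr ran from wild-type (122 ± 35.9 CPM) through knockout endothelial cells (65.3 ± 17.2) to knockout (1.78 ± 1.40) and wild-type motor neurons (1.52 ± 0.826). For Apln the neighbours within a cell type overlapped, and for Aplnr only those among motor neurons did. In the regional series Apln averaged 114 ± 26.9 CPM in the cord against 18.9 ± 5.56 CPM in the meninges, and Aplnr 238 ± 84.3 and 190 ± 67.6 CPM (n = 5 each).

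The regional difference of Apln and Aplnr was compared between the dissections, a contrast that the choice of the pair did not use. The spinal over meningeal log2 difference of batches 1 to 3 (ventral cord) minus that of batches 4 and 5 (whole cord) was 0.03 ± 0.34 for Apln (95% interval -0.72 to 0.78, adjusted p = 0.977, edgeR) and 0.11 ± 0.38 for Aplnr (-0.73 to 0.95, adjusted p = 0.903, edgeR). No difference between dissections was detectable for either gene, and the intervals leave room for one of up to about the bounds given. Of 17901 genes, 0.547% were called here, and none of the apelin pathway lists.

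Beside the 24.8% of all tested genes higher and 23% lower in the cord, the other genes of the pathway were counted by role. Apela, the second ligand, measured 3.98, 3.44, 6.47, 1.89 and 3.36 CPM in spinal and 1.82, 1.86, 1.11, 1.37 and 1.28 CPM in meningeal libraries, with no overlap (log2 1.37 ± 0.31, adjusted p = 0.00305, edgeR). The span of Apela overlaps that of another gene model on the same strand. Whether their exons overlap was not checked, so its reads are uncertain. Of 9 tested genes of processing and breakdown, 4 (44.4%) were higher and 2 (22.2%) lower in the cord, the latter near the share of all genes. Mme, neprilysin, a membrane protease that degrades apelin, averaged 1.92 ± 2.08 CPM in the cord against 69.0 ± 7.16 CPM in the meninges (log2 -5.16 ± 0.51, adjusted p = 4.72e-06, edgeR). The convertase genes Pcsk1 (3.33 ± 0.45), Pcsk2 (1.74 ± 0.33) and Furin (0.45 ± 0.17) were higher and Pcsk5 (-1.42 ± 0.19) lower.

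Of 20 coupling and signal genes, 6 (30.0%) were higher in the cord, near the 24.8% of all tested genes, and 0 were lower, where 23% of all genes were. Among the higher were Gnaz (1.68 ± 0.21) and Gnao1 (1.59 ± 0.15). The list median was 0.22, beside 0.01 over all genes. Of 20 reported regulators and targets, 10 (50.0%) were higher and 6 (30.0%) lower. Epas1, the hypoxia-inducible factor of endothelium, was higher (2.33 ± 0.22), as were Gja4 (2.26 ± 0.22), a connexin gene, and Nos3 (1.73 ± 0.27), endothelial nitric oxide synthase. Kdr, the gene behind the sorting reporter, was also higher (95% interval 0.94 to 2.06). Lower were Angpt1 (-1.96 ± 0.30) and Vegfa (-1.81 ± 0.29), secreted vessel growth factors. Hif1a differed by 0.12 ± 0.09 and Klf2 by 0.53 ± 0.23, and neither passed (adjusted p = 0.31 and 0.0778, edgeR). Of 12 related receptors, 4 (33.3%) were higher and 5 (41.7%) lower, with Cxcr4, a chemokine receptor, at 3.83 ± 0.18 and the angiotensin receptor gene Agtr2 at -4.98 ± 0.53.

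The tip cell list held 11 higher and 3 lower genes of 16 tested (68.8% and 18.8%, beside 24.8% and 23% of all genes), with a median of 1.18. The general endothelial markers had 9 higher and 0 lower of 12, with a median of 1.5, so the tip cell median was below that of the endothelial markers. Besides Cxcr4 its leading members were Adm (2.79 ± 0.25), the vasodilator peptide adrenomedullin, Unc5b (2.56 ± 0.20), a netrin receptor, and Dll4 (2.52 ± 0.26), a Notch ligand. Esm1, a tip cell proteoglycan gene, was higher as well (1.02 ± 0.21). The 3 lower members, named after their values were seen, were Igfbp3 (-1.63 ± 0.14), a binding protein of insulin-like growth factors, and the basement membrane genes Lamb1 (-1.01 ± 0.19) and Nid2 (-0.69 ± 0.17). Vein genes were 5 higher (38.5%) and 3 lower (23.1%) of 13, and artery genes 9 higher (47.4%) and 7 lower (36.8%) of 19. Among veins, Il1r1 (2.45 ± 0.29) and Slc38a5 (2.38 ± 0.29) were higher and Nr2f2 (-0.94 ± 0.16), the vein fate factor, lower. Among arteries, the Notch target Hey1 (3.02 ± 0.14) and Notch4 (2.74 ± 0.25) were higher, and Cxcl12 (-3.59 ± 0.29) and Gja5 (-1.82 ± 0.29) lower. Mme, Cxcl12, Vegfa and Nr2f2 are also made by cells other than endothelium. The mesenchymal marker sum differed between the regions in the direction of their values, and its part in them was not tested. Neural markers were higher in the cord libraries, 7 of 8 for neural progenitors (median 4.69) and 5 of 8 for motor neurons (median 3.21). Pcsk1, Pcsk2, Gnaz and Gnao1, higher in the cord, were in the knockout series higher in motor neuron than in endothelial libraries. The part of neural cells in the regional values of these 4 genes and of the other listed genes, Hey1 and Cxcr4 among them, was not tested.

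**Figure D4:**
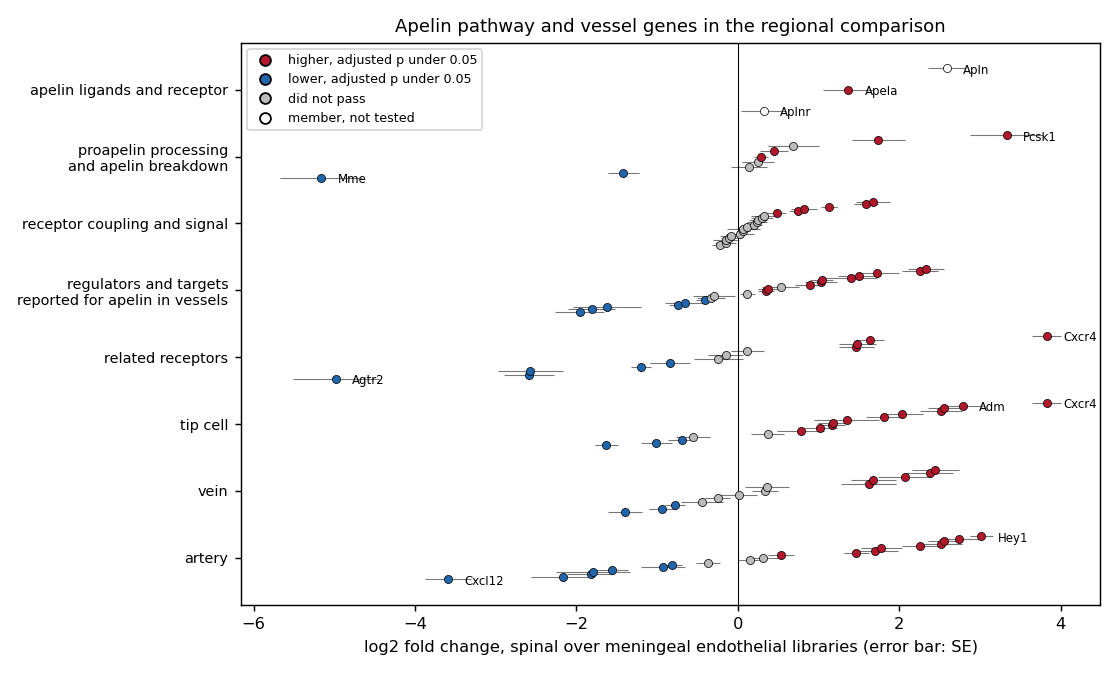
Log2 fold change of spinal over meningeal endothelial libraries for Apln, Aplnr and the genes of 8 lists, 1 point a gene with its SE. Red and blue points passed edgeR's test as higher and lower, grey ones did not, and white ones are Apln (2.59) and Aplnr (0.32), which were not tested. The tip cell list has 11 red and 3 blue points.

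The profile of each gene was set against those of all other tested genes, as the mean absolute difference of log2 levels after each gene's own mean was taken out. Over the 10 regional libraries the genes nearest to Apln were Kcnq1 (0.10), a potassium channel gene, Adm (0.13), Unc5b (0.15) and Tgfa (0.15), an EGF receptor ligand, where the median over 16212 genes was 1.31. Aplnr ranked 4696 by this measure, at 1.15. The genes nearest to Aplnr were Chst7 (0.12), Cdh5 (0.13), Icam2 (0.14) and Gimap5 (0.15), against a median of 0.54. The neighbours of Apln included 2 genes of the tip cell list, and those of Aplnr included Cdh5 of the endothelial marker list and the adhesion molecule gene Icam2. The difference between the regions enters each of these distances, so they partly restate the fold changes. Cdh5 averaged 374 CPM in spinal and 267 CPM in meningeal libraries, while the median log2 difference of the 12 endothelial markers was 1.5. The share of tip cell genes among all near genes was not counted.

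Over the 11 libraries of the knockout series the nearest genes to Apln were Vwf (0.24), Mmrn2 (0.28), Plvap (0.31) and Slfn9 (0.33), with a median of 2.32 over 19265 genes. Those nearest to Aplnr were Cd34 (0.26), Kdr (0.27), Cd93 (0.27) and Cldn5 (0.28), with a median of 2.88. Apln and Aplnr differed from each other by 0.67. All of these genes were low in motor neuron libraries, so that gap enters each of these differences. The likeness is a description over libraries that share their cells and depth, and no p-value belongs to it.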

How the data were processed

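RNA-seq counts of 21 libraries were used. The deposited values are raw counts per gene; per the file headers, the authors made them with featureCounts 1.6.4 over exons of GENCODE M22 (mm10), as single reads without strand in the knockout series and as read pairs with a strand setting in the regional series, whereas the labels' protocols call the kit stranded. For this reason no level was compared between the series, and in the knockout series antisense reads cannot be told apart. Trimmomatic 0.39 and STAR 2.5.3a are named in the submitters' processing notes. Gene length, the other deposited column, was used per the file headers for levels per kilobase.

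Levels are CPM of TMM-scaled library sizes. Tests were edgeR 4.0.16 quasi-likelihood fits (glmQLFit, glmQLFTest) in R 4.3.3 on the groups compared, after filterByExpr with a minimum count of 10, with Benjamini-Hochberg adjustment over all genes tested, two-sided, called at an adjusted p under 0.05. The SE is the log2 fold change divided by the root of the F statistic. Both genes passed the filter in each comparison. The main fits had no block. Labels give a batch to each library, so batch numbers pair them; same-batch deviations correlated at r = 0.44 and 0.516 for endothelial genotypes, 0.379, 0.413 and 0.359 for motor neurons and -0.273 to 0.303 between regions. Alternatives were the batch as a replicate block, DESeq2 1.42.0, RLE factors, no count filter, a filter at CPM 5 and leaving out each library. The fits were tested on simulated counts. Profiles used log2 CPM with a prior count of 2.

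The members and gene lists were chosen with earlier results of these data known. Named genes are Apln, Aplnr, Apela, up to 4 called members per list and comparison with the largest fold change, a fixed set of role genes, and the 4 nearest profiles; some genes this rule names are not reported here.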

Additional observations from a re-analysis of the deposited data

How the results depend on the processing

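The log2 differences of Apln and Aplnr in the knockout endothelial, cell type and regional comparisons kept their sign under DESeq2, RLE factors, both filters, the block and the loss of any 1 library. Leaving out single libraries gave 0.11 to 0.87 for Apln and -1.17 to -0.55 for Aplnr in knockout endothelial cells, 4.66 to 5.4 for Apln (lowest without wild-type endothelial batch 1) and 5.94 to 6.64 for Aplnr between cell types, and 2.4 to 2.74 and 0.18 to 0.54 between regions. In motor neurons Apln ran from 0.58 to 1.53 and Aplnr from -0.60 to 0.64, below 0 without wild-type batch 2 or knockout batch 3; under the filter at CPM 5 neither gene was tested there. Relative to the endothelial marker sum, an alternative chosen after seeing the data, the values were 0.77 (Apln) and -0.57 (Aplnr) for the knockout and 1.30 and -1.01 for region, the last with the opposite sign.

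Between dissections Apln lay at 0.03 and turned sign with DESeq2 (-0.01), RLE factors (-0.02) and the CPM filter (-0.02), and ran from -0.19 to 0.19 without single libraries; Aplnr ran from -0.29 to 0.31. Adjusted p over all alternatives was 0.704 to 1.0 for Apln and 0.631 to 0.982 for Aplnr.

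With the batch as a replicate block, which pairs the libraries, the count of called genes rose from 0 to 180 in knockout endothelial cells and from 2 to 6 in knockout motor neurons, and fell from 98 to 4 between dissections; the block gave 1.06 for Apln and 0.14 for Aplnr in motor neurons and, of the listed genes between regions, lost Pcsk7 (0.29, adjusted p = 0.0521, edgeR) and gained Gna12 as higher and Angpt2 as lower. Knockout endothelial counts were 30 with DESeq2, 2 without a filter and 0 to 1 without single libraries (1 without wild-type batch 1). Motor neuron counts were 4 with DESeq2, 4 without a filter, 0 with the CPM filter (edgeR, 92 at an unadjusted p under 0.05) and 0 to 1 without any 1 library. Counts between dissections were 1210 with DESeq2, 305 with RLE factors, 1780 without a filter and 236 with the CPM filter. Without single libraries they ran from 0 (without spinal batch 4 or 5, or meningeal batch 5) to 1190 (without spinal batch 2), and moved by over 1.5 times for 9 of 10 libraries, spinal batch 3 being the exception. Where leaving out a library left 1 in a group, that library was assumed to vary like the others. The cause of these shifts was not tested. With 9 to 16 reads of Apln in wild-type motor neuron libraries, depth limits what can be seen there.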

Other observations

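The file labelled wild-type endothelial batch 2 and that of knockout endothelial batch 1 hold 1 set of counts, with 807 reads of Apln and 1967 reads of Aplnr. Its Plxnd1 count was 727, against 5997 and 4856 in the wild-type libraries that were used and 427 and 396 in the other two knockout libraries. A wild-type endothelial library of batch 2 was not analysed here.

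The ratio of Apln to Aplnr per exon base varied less between libraries than either level in each of the 4 endothelial groups, relative to the group mean. Among knockout endothelial libraries Apln ran from 16.8 to 32.1 CPM and Aplnr from 45.8 to 78.1 CPM, while the ratio ran from 0.432 to 0.482. Among spinal libraries it ran from 0.457 in batch 1 to 0.763 in batch 2, both from ventral cord, and was 0.53 and 0.524 in the whole-cord batches 4 and 5.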
